A study of Mus musculus with 20 samples.

Results

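The Notch pathway was followed through 10 genes: the receptors Notch1, Notch2 and Notch3, the ligands Dll1 and Jag1, the target genes Hes1, Hes5, Hey1 and Hey2, and Rbpj, the DNA-binding partner of the cleaved receptor. They were chosen by name, though with earlier results of these data already known. Every one of them was found among the 27998 genes listed in the single-cell RNA-seq (scRNA-seq) libraries and among the 24062 rows of the RNA-seq libraries. The cells came from Nestin-EGFP mice, bred on C57BL/6, in which regulatory sequence of Nestin drives EGFP, and EGFP-positive cells were sorted from the dentate gyrus at postnatal day 5 (P5), 12 weeks (12w) and 24 weeks (24w). There was 1 scRNA-seq library and 1 single-cell ATAC-seq (scATAC-seq) library per age, and the number of mice behind each is not given in the sources used here. The RNA-seq libraries were made from a long-passaged line of cultured mouse neural stem cells (NSCs), grown with bFGF and EGF and taken 3 days after infection with a lentivirus that carries GFP, puromycin resistance and an shRNA, either against Setd8 (Setd8KD) or scrambled (Ctrl). Setd8 encodes the enzyme that adds a single methyl group to lysine 20 of histone H4. The labels give hippocampus as the tissue of these cultures, whereas the study's methods give embryonic cortex.

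Notch signalling passes between touching cells. A ligand of the Delta or Jagged family on the sending cell binds a Notch receptor, proteases then release the receptor's intracellular domain, and this domain joins RBPJ in the nucleus and turns RBPJ from a repressor into an activator of the Hes and Hey genes. Hes and Hey proteins repress proneural genes, and in the dentate gyrus the pathway is known for keeping NSCs undifferentiated and quiescent, while in vessels it is known for setting the fate of mural and endothelial cells.

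RBPJ binds a short core sequence, TGGGAA, and the promoters of the target genes Hes5 and Hey2 are shown because each holds 2 copies of it. The windows are RefSeq's, in the GRCm38.p6 build, and are printed 5′ to 3′ on the gene's own strand, from 250 bases before the start to just after it. Capitals mark the core, read as TGGGAA on the gene's strand or as TTCCCA where it lies on the other strand. The Hes5 stretch is chr4:154960673-154960928 on the plus strand and the Hey2 stretch is chr10:30842778-30843033 on the minus strand.
Hes5: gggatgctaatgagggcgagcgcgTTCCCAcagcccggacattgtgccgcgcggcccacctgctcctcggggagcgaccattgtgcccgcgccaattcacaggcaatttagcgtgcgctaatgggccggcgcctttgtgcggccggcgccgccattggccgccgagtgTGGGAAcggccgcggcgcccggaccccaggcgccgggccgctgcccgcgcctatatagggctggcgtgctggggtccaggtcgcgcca
Hey2: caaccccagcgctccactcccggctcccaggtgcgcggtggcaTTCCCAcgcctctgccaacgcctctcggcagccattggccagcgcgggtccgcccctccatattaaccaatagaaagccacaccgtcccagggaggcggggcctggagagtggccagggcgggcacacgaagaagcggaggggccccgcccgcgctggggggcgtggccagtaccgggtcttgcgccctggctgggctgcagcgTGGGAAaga

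The Hes5 gene lies at chr4:154960923-154962371 on the plus strand and Hey2 at chr10:30832359-30842801 on the minus strand in GRCm38, and Notch2 and Jag1, which recur below, lie at chr3:98013527-98150361 on the plus strand and chr2:137081456-137116644 on the minus strand. Distances are counted from RefSeq's start, which for Hey2 lies inside the gene as just given, so its second core also lies inside that interval. In Hes5 the cores begin 226 and 82 bases before the RefSeq start, and in Hey2 they begin 207 and 3 bases before it. All 4 of these copies follow a G on the motif's own strand and so also match the longer form GTGGGAA. A RefSeq window of 300 bases was at hand for 8 of the 10 members, 10 windows in all, and the core was searched on both strands. The targets Hes1 and Hey1 had no window and could not be searched. The core stood in 4 windows of 3 genes, Hes5, Hey2 and both windows of Rbpj, and was absent from those of Notch1, Notch2, Notch3, Dll1 and Jag1. Like the windows of Hes5 and Hey2, the first window of Rbpj held a pair of cores. Of all 32851 windows, 25.6% held TGGGAA and 6.38% held GTGGGAA, so a match alone is common. All 300 bases of every one of the 10 windows lay inside an scATAC-seq peak in each of the 3 libraries.

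The scRNA-seq libraries kept 12752, 5271 and 2794 cells in order of age, whose median UMI (molecule) counts were 4261, 2271 and 2178. Of these cells 142, 111 and 82 carried a barcode that another library also had. The libraries differed in sex as well as in age: Y-linked genes gave 0 UMIs at 12w and 1040 at 24w, while Xist gave 26121 and 2 UMIs, and P5 held cells of both kinds. With 1 library per age there is no replicate, so age, sex, litter and library cannot be told apart, and no test between ages was possible. Levels are given as CPM, the UMIs of a gene per 1000000 UMIs of all cells of a class, with exact 95% Poisson intervals that cover counting error only. Intervals between ages are exact conditional binomial intervals on the ratio of CPM to P5, and both ratios share the P5 library. CPM is set side by side only within a gene.

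Clusters were named from marker genes, with the members and 46 other pathway genes kept out of the clustering and naming. NSC-like cells fell mainly into a pair of clusters. Cluster 1 held 776, 349 and 93 cells at P5, 12w and 24w, the order in which all values by age are given. It raised 10 of 10 NSC markers, but its leading genes by fold (among them Cyr61, Itih3, Riiad1, Ass1 and Fam107a) included Itih3, an astrocyte marker, and no NSC marker. Cluster 8 held 474, 99 and 18 cells and was led by Frzb, Gas1 and Gdf10. A smaller NSC-like cluster held 125, 4 and 0 cells and entered no comparison of its own. The NSC-like cells were therefore compared cluster by cluster. The other neural classes were astrocyte-like (AS), neural progenitor-like (NPC) and the earlier and later immature neuron-like classes (IMN1 and IMN2), and the sort also held oligodendrocyte precursor-like (OPC), oligodendrocyte-like, ependymal-like, interneuron-like, pericyte-like (PC), vascular smooth muscle-like (VSMC), endothelial-like (EC), vascular leptomeningeal-like (VLMC) and microglia-like cells.

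Pooled over ages, the receptors had separate patterns over the classes. The pooled levels weight the ages unequally, since P5 gave 19173440 of the 20418304 UMIs of AS-like cells and 3318149 of the 4779805 UMIs of NSC-like cluster 1. Notch1 was broadly spread: PC-like cells had 170 CPM (95% interval 162 to 178), above every other class, and the next 7 classes, from NSC-like cluster 8 at 127 CPM (114 to 141) to OPC-like cells at 98.1 CPM (91.7 to 105), overlapped each with its neighbour. Immature neurons were lower, IMN1-like cells having 40.1 CPM (33.9 to 47.1) and IMN2-like cells 31.0 CPM (26.8 to 35.6). Notch2 was highest in the NSC-like clusters, at 191 CPM (179 to 204) in cluster 1 and 182 CPM (166 to 198) in cluster 8, whose intervals overlapped. AS-like cells followed with 84.1 CPM (80.2 to 88.2), clear of both, and IMN1-like cells had 7.80 CPM (5.23 to 11.2). By age the gap was narrower, 114, 368 and 359 CPM in cluster 1 against 74.1, 232 and 260 CPM in AS-like cells. Their 24w intervals, 297 to 430 and 206 to 325 CPM, overlapped. Notch3, the receptor known for its role in vascular smooth muscle, reached 649 CPM (623 to 676) in VSMC-like and 391 CPM (379 to 403) in PC-like cells, and no other class exceeded the 64.6 CPM (47.6 to 85.7) of EC-like cells.

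The ligands were divided among the classes differently from each other. Dll1, a Delta ligand that committed progenitors are known to present, was highest in OPC-like cells, 36.4 CPM (32.5 to 40.5), and NPC-like cells, 29.4 CPM (26.4 to 32.6). Their pooled intervals overlapped, but at P5 alone OPC-like cells had 34.6 CPM (30.9 to 38.7) and NPC-like cells 21.3 CPM (18.5 to 24.3), and at 12w 142 CPM (87.7 to 217) and 72.8 CPM (60.7 to 86.6), with no overlap at either age. Pooled, Dll1 stood at 10.3 CPM (7.95 to 13.1) or less in every other class. Jag1 was led by VSMC-like cells at 136 CPM (124 to 148), PC-like cells at 67.8 CPM (62.8 to 73.0) and EC-like cells at 55.2 CPM (39.6 to 74.9). Among neural classes the NSC-like clusters were highest for Jag1, at 28.2 CPM (23.7 to 33.4) in cluster 1 and 23.3 CPM (17.9 to 29.8) in cluster 8, and NPC-like cells came next with 10.5 CPM (8.78 to 12.6), below both intervals. This pooled order did not hold in adults, where AS-like cells had 39.1 and 36.7 CPM of Jag1 and NPC-like cells 13.2 and 6.10 CPM.

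The 4 target genes had different orders over the classes. Some leading classes were shared, AS-like cells between Hes5 and Hey1 and PC-like cells between Hes1 and Hey2. Hes5, a widely used readout of Notch activity in neural stem cells, had overlapping intervals in AS-like cells, 1056 CPM (1042 to 1070), NSC-like cluster 1, 1027 CPM (998 to 1056), and NSC-like cluster 8, 1017 CPM (979 to 1055). In the adult libraries alone the classes were apart, AS-like cells having 535 and 420.4 CPM of Hes5 and cluster 1 having 1004 and 939 CPM. It then stepped down through OPC-like cells at 508 CPM (494 to 523) and NPC-like cells at 269 CPM (260 to 278). Hes1 was highest in vascular classes, with 864 CPM (847 to 883) in PC-like, 677 CPM (565 to 803) in VLMC-like and 580 CPM (527 to 638) in EC-like cells.

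The pair of NSC-like clusters differed in Hes1 although their Hes5 intervals overlapped. Pooled over ages, cluster 1 had 314 CPM of Hes1 (299 to 331) and cluster 8 had 126 CPM (113 to 141). The gap was widest at P5, at 322 against 108 CPM. At 12w cluster 1 had 290 CPM and cluster 8 had 208 CPM, and their 24w levels of 319 against 247 CPM had overlapping intervals. With all cells thinned to the same number of UMIs, the order at 12w turned. Cluster 1 then had 264 CPM of Hes1 from 92 UMIs and cluster 8 had 293 CPM from 29 UMIs. The order was kept at P5, at 362 against 101 CPM, and at 24w, at 366 against 222 CPM, the last from 4 UMIs. Pooled over ages, Hey1 was similar in EC-like cells at 102 CPM (80.6 to 128), AS-like cells at 101 CPM (97.1 to 106) and ependymal-like cells at 96.2 CPM (82.2 to 112), whose intervals overlapped, and the NSC-like clusters stood just below at 72.8 CPM (65.4 to 80.9) and 66.5 CPM (57.2 to 77.0). At 12w alone EC-like cells had 137 CPM of Hey1 (95.7 to 189) and AS-like cells 68.8 CPM (53.1 to 87.7), which did not overlap. Hey2 was highest in mural cells, at 81.0 CPM (72.1 to 90.7) in VSMC-like and 73.4 CPM (68.2 to 78.8) in PC-like cells, and the next class, ependymal-like cells, had 18.2 CPM (12.5 to 25.7). Rbpj varied least over the classes, from 41.7 CPM (35.4 to 48.8) in IMN1-like to 19.6 CPM (16.8 to 22.7) in OPC-like cells, and every neighbouring pair in its order overlapped.

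**Figure D1:**
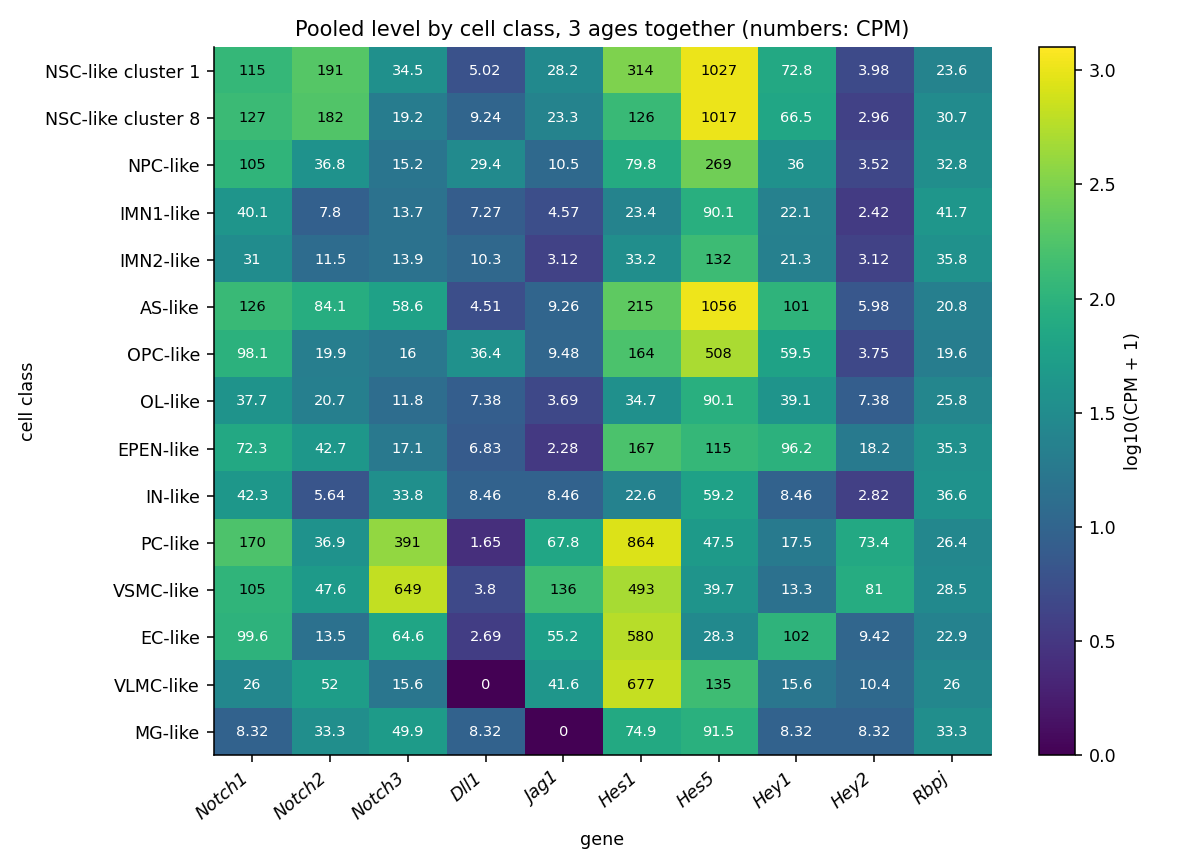
Each cell of the grid is 1 gene (columns) in 1 cell class (rows), with the 3 ages pooled; the number is the level in CPM and the colour its log10 after adding 1. Notch2 and Hes5 are high in the NSC-like rows, Dll1 in the NPC-like and OPC-like rows, and Notch3 and Hey2 in the PC-like and VSMC-like rows.

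In NSC-like cluster 1, Notch2 was higher at both adult ages and Jag1 had higher values on fewer molecules, whereas Hes5 and Hes1 stayed close to their P5 level. A gene was counted as changed where both adult ages differed from P5 by 2-fold or more, in 1 direction, with at least 20 UMIs at each age where it was higher. Of the 10 members, 8 had 20 UMIs at 1 or more ages in this cluster. Only Notch2 passed the rule, beside 9.97% of 9819 genes in either direction and 3.68% in the upward direction. Between all genes the median log2 ratio was 0.07 at 12w and 0.12 at 24w, and relative to these medians the ratios of Notch2 were 3.06 and 2.89. The NSC-like ratio of Notch2 was among the results already known when the genes were chosen.

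For Notch2, cluster 1 had 114, 368 and 359 CPM. The ratios to P5 were 3.22 (95% interval 2.80 to 3.71) and 3.14 (2.53 to 3.88), and the adult ages lay together well above P5. When the pathway genes were let into the clustering, its ratios in the largest NSC-like cluster were 1.85 and 1.92, below 2-fold at both ages, so the call depends on the clusters having been drawn without the members. Against P5 cells of the adult library's sex alone the ratios were 3.23 and 2.38, and with every cell thinned to 1000 UMIs they were 3.62 and 2.46. Notch1 had 112, 112 and 150 CPM, with ratios of 0.997 (0.809 to 1.22) and 1.34 (0.974 to 1.81), both with an interval that includes no change. Notch3 went from 38.9 to 17.6 and 49.1 CPM and had no common direction.

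The Notch3 values must be read beside free RNA, the molecules in a droplet that come from burst cells. Free RNA was estimated at 10.1% of the UMIs of cluster 1 at 12w and 11.2% at 24w, from 15 vascular marker genes. On this estimate free RNA alone predicted 21.0 and 35.4 CPM of Notch3 in cluster 1, beside the 17.6 and 49.1 CPM counted, and after its subtraction the ratios of Notch3 were 0 and 0.394. The P5 library lists only selected barcodes, so no such estimate could be made there. For the other receptors the prediction was small: 6.81 and 5.49 CPM of Notch2, and 9.51 and 14.4 CPM of Notch1.

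Jag1, the ligand with the larger change, had 12.1, 67.8 and 55.2 CPM in cluster 1. Its ratios were 5.62 (3.79 to 8.46) and 4.58 (2.47 to 8.18), and the predicted free RNA was 5.03 and 7.68 CPM. Against P5 cells of the adult library's sex the ratios were 5.95 and 3.74, and at clustering resolution 1.2 they were 8.71 and 7.08. It missed the rule because 18 UMIs were counted at 24w, below the minimum of 20, and it passed when all NSC-like cells were pooled, with ratios of 4.87 and 5.03 and 27 UMIs at 24w, beside 9.3% of 11016 genes in either direction and 3.36% in the upward direction. Dll1 was too rare in cluster 1 for a ratio to be read, with 16, 7 and 1 UMIs.

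Among the targets in cluster 1, Hes5 had 1044, 1004 and 939 CPM at P5, 12w and 24w. Its ratios were 0.962 (0.899 to 1.03) and 0.899 (0.798 to 1.01), intervals that leave no room for a change of 1.5-fold in counting error alone, and with cells thinned to 1000 UMIs they were 1.16 and 1.11. Hes1 gave 322, 290 and 319 CPM, with ratios of 0.899 (0.792 to 1.02) and 0.990 (0.802 to 1.21). In this cluster and without thinning, both genes thus stood near their P5 level in the cells whose Notch2 level was over 3-fold higher. For Hes1 this did not hold in other settings. Thinning to 1000 UMIs gave a 12w ratio of 0.728 in cluster 1. Over all NSC-like cells its ratios were 1.16 (1.04 to 1.30) and 1.32 (1.09 to 1.59), with both intervals above 1.

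Hey1 had 83.8, 46.7 and 52.2 CPM in cluster 1. The ratios were 0.557 (0.407 to 0.749) and 0.622 (0.357 to 1.01), short of the 2-fold rule, and the 24w interval includes no change. With every cell thinned to 1000 UMIs the ratios were 0.629 and 1.42, so the direction at 24w was not kept. Hey2 had 14, 5 and 0 UMIs, and for the 0 UMIs at 24w a floor of 3 counts is 9.20 CPM and the upper Poisson bound 11.3 CPM. Rbpj had 23.5, 24.7 and 21.5 CPM, with ratios of 1.05 (0.656 to 1.63) and 0.914 (0.356 to 1.97). With cells thinned to 1000 UMIs its ratios were 0.606 and 0.379, but these rest on 22, 6 and 1 UMIs.

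**Figure D2:**
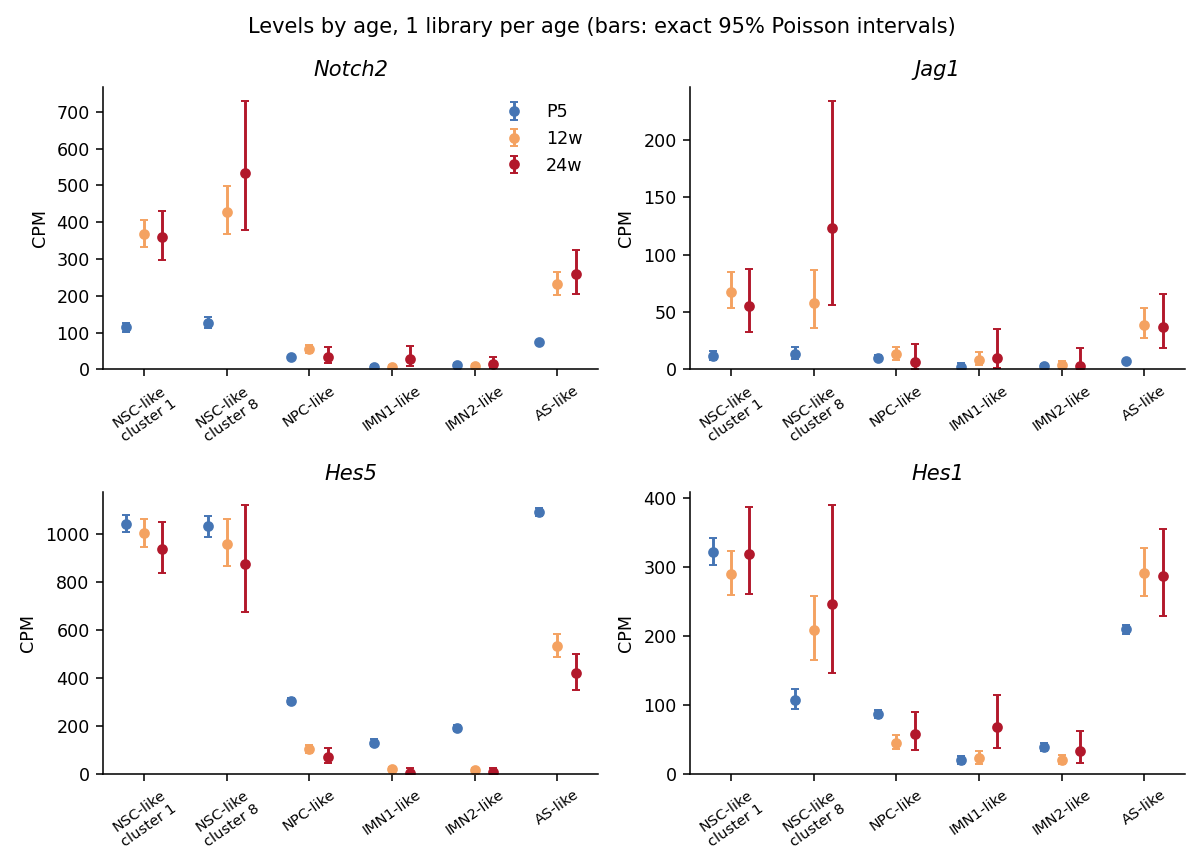
Levels in CPM (vertical axes, from 0) of 4 genes in the neural classes at P5, 12w and 24w; points are pooled levels of 1 library per age and bars exact 95% Poisson intervals. Notch2 and Jag1 are higher at 12w and 24w in both NSC-like clusters and in AS-like cells, and Hes5 is lower with age in NPC-like, IMN1-like, IMN2-like and AS-like cells, while its ratios in the NSC-like clusters, 0.850 to 0.962, have intervals that include 1.

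Cluster 8, the smaller NSC-like cluster, gave the same picture for Notch2 and Jag1 and another one for Hes1. Notch2 had 126, 429 and 534 CPM, with ratios of 3.41 (2.80 to 4.13) and 4.25 (2.96 to 5.95). Jag1 had 13.9, 57.6 and 123 CPM, the last from 9 UMIs, with ratios of 4.15 (2.31 to 7.36) and 8.88 (3.72 to 19.1). By the rule Notch2 was higher and Hey1 lower, beside 6.65% of 8771 genes in either direction. Hey1 had 74.3, 30.1 and 27.4 CPM, the last from 2 UMIs, and its ratios were 0.405 (0.205 to 0.726) and 0.369 (0.0443 to 1.35).

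Hes1 in cluster 8 had 108, 208 and 247 CPM, with ratios of 1.93 (1.48 to 2.48) and 2.28 (1.33 to 3.69). At each adult age its interval lay above 1, while those of cluster 1 included 1. Predicted free RNA made up 36.7 and 55.0 CPM of the adult values. Hes5 in cluster 8 had 1031, 960 and 877 CPM, and its ratios of 0.931 (0.833 to 1.04) and 0.850 (0.652 to 1.09) both included no change, as in cluster 1. The other members rested on few adult molecules in this cluster. Notch1 had 133, 80.2 and 205 CPM, with no common direction, and Rbpj had 33.6, 12.5 and 41.1 CPM from 75, 5 and 3 UMIs. Dll1 was counted at 11, 13 and 1 UMIs, Notch3 at 36, 11 and 5 UMIs and Hey2 at 5, 2 and 1 UMIs.

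**Figure D3:**
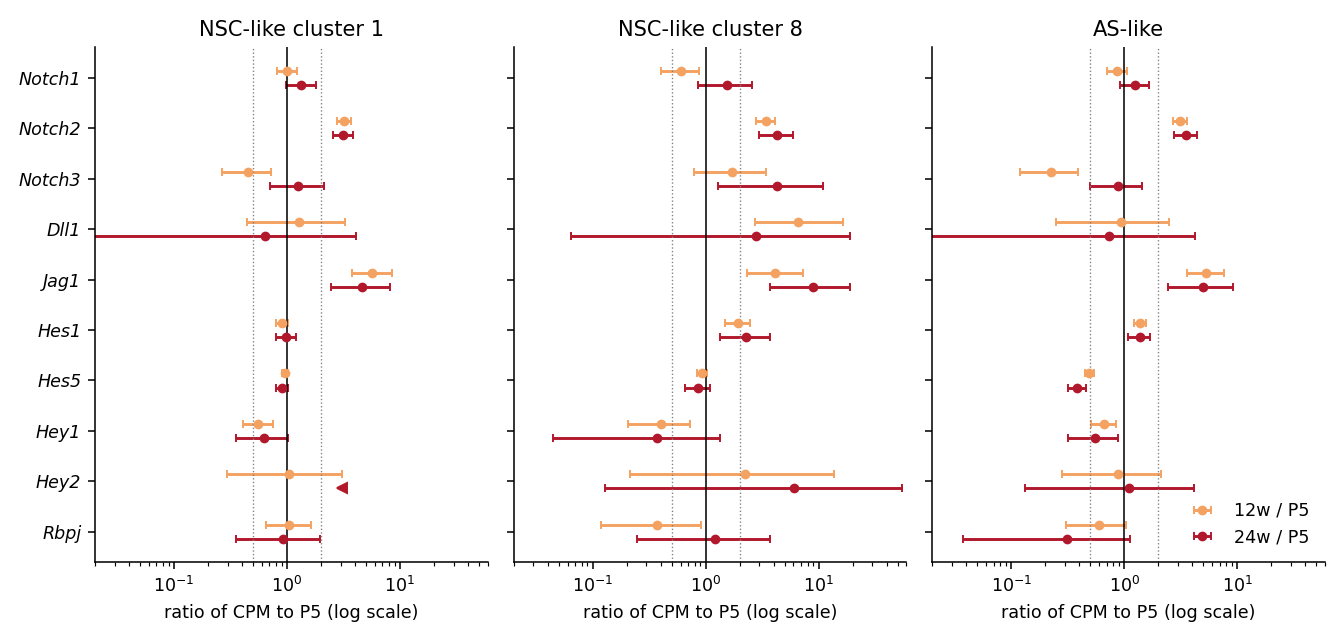
Ratio of CPM at 12w and 24w to P5 (horizontal log axis) for each gene in NSC-like clusters 1 and 8 and in AS-like cells, with exact 95% conditional binomial intervals; dotted lines mark the 2-fold rule, the solid line no change, and the left-pointing triangle for Hey2 in cluster 1 at 24w the upper bound of a ratio of 0. Notch2 and Jag1 lie to the right of the upper dotted line at both ages in all 3 panels, and Hes5 lies near 1 in the NSC-like clusters and left of the lower dotted line in AS-like cells.

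In NPC-like cells, the dividing class, Hes5 and Hey1 were lower at both adult ages and Dll1 had higher values without meeting the rule. The class was named by cell cycle genes, for clusters whose next best class was neural, AS-like included. Which kinds of cell were dividing at each age was not tested. Hes5 had 304, 104 and 73.2 CPM, with ratios of 0.342 (0.293 to 0.398) and 0.240 (0.154 to 0.358). Hey1 had 40.2, 16.6 and 12.2 CPM, with ratios of 0.413 (0.273 to 0.603) and 0.303 (0.0823 to 0.783). These were the members past the rule in this class, beside 7.78% of 11625 genes in either direction and 6.26% in the downward direction. For Hes5 the predicted free RNA was 29.1 CPM at 12w and 19.0 CPM at 24w. No such estimate could be made at P5, when PC-like cells had 175 CPM of Hes5. The part of free RNA in the P5 level of NPC-like cells, and so in the size of these ratios, was not tested.

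Dll1 in NPC-like cells went from 21.3 to 72.8 and 42.7 CPM over the ages. Its ratios were 3.42 (2.72 to 4.29) and 2.01 (1.08 to 3.44), and it missed the rule through its 14 UMIs at 24w. The predicted free RNA was 1.57 and 0.95 CPM, so nearly all of the Dll1 counted was outside that estimate. Hes1 had 86.7, 45.3 and 57.9 CPM in these cells, beside a predicted free RNA of 35 CPM at 12w and 57.2 CPM at 24w. Notch2 had 33.8, 54.4 and 33.5 CPM and held no common direction.

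Immature neurons had less Hes5 at each age than NPC-like cells and hardly any in adults. In IMN1-like cells Hes5 had 131, 19.6 and 4.90 CPM, with ratios of 0.150 (0.0928 to 0.231) and 0.0376 (0.000948 to 0.211). In IMN2-like cells it had 193, 17.9 and 6.81 CPM, with ratios of 0.0927 (0.0638 to 0.131) and 0.0353 (0.00427 to 0.128). Predicted free RNA at 12w, 27.4 CPM for the first and 27.5 CPM for the second class, was above what was counted, so no Hes5 beyond free RNA was detectable there. At P5 no such estimate could be made. Over the vascular classes, Hes5 at P5 ranged from 70.7 CPM in EC-like to 176 CPM in VLMC-like cells, with 175 CPM in PC-like cells. The part of free RNA in the P5 levels of immature neurons, and so in these ratios, was not tested.

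Hes5 was the member past the rule in IMN1-like cells, beside 4.4% of 8531 genes in either direction and 2.94% downward, and Hes5 and Hey1 passed it in IMN2-like cells, beside 6.66% of 10181 genes in either direction and 5.06% downward. Hey1 in IMN2-like cells had 27.9, 7.89 and 13.6 CPM, with ratios of 0.282 (0.153 to 0.485) and 0.487 (0.131 to 1.28). Notch3 in IMN1-like cells rested on 5, 33 and 13 UMIs, and its adult 29.4 and 63.7 CPM stood beside a free RNA prediction of 18.3 and 46.6 CPM. The IMN2-like class was spread over clusters unequally, since its cluster 2 held 602 of 1167 cells at P5 and 439 of 517 at 12w.

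AS-like cells had Notch2 and Jag1 ratios close to those of NSC-like cluster 1, at lower levels, but not its Hes5 ratios. Notch2 had 74.1, 232 and 260 CPM, with ratios of 3.13 (2.70 to 3.61) and 3.51 (2.76 to 4.42). Jag1 had 7.35, 39.1 and 36.7 CPM, with ratios of 5.32 (3.60 to 7.69) and 4.99 (2.44 to 9.21), the 24w value from 11 UMIs. Hes5 had 1092, 535 and 420.4 CPM, with ratios of 0.490 (0.448 to 0.536) and 0.385 (0.321 to 0.459). The Hes5 intervals of AS-like cells and NSC-like cluster 1 did not overlap at either adult age.

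By the rule, Notch2 was higher and Hes5 lower in AS-like cells, beside 13.4% of 12652 genes in either direction. With all cells thinned to the same number of UMIs, Hes5 had 1044.5, 632 and 421 CPM in age order, short of 2-fold at 12w. Notch2 then had 76.6, 218 and 207 CPM in AS-like cells, more than 2-fold higher at both adult ages. Hes1 in these cells had 209.9, 291 and 287 CPM, with ratios of 1.39 (1.22 to 1.57) and 1.37 (1.09 to 1.69), and Hey1 had 104, 68.8 and 56.7 CPM, with ratios of 0.663 (0.510 to 0.849) and 0.547 (0.318 to 0.878). Notch3 had 60.9 CPM at P5, above the 13.8 CPM at 12w, which lay under its free RNA prediction of 19.1 CPM. AS-like cluster 0 held 2185 of 4427, 205 of 326 and 73 of 121 cells in age order.

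Vascular cells were few at P5 and many in adults, 389, 2438 and 1749 PC-like and 88, 754 and 432 VSMC-like cells. Notch3 in PC-like cells had 244 (222 to 267), 398 (380 to 417) and 459 CPM (437 to 481) in age order, and in VSMC-like cells 404, 670 and 737 CPM. Hes1 in PC-like cells had 403, 933 and 1020 CPM, and Hey2 had 40.3, 87.4 and 73.0 CPM. Jag1 in PC-like cells had 38.2, 65.0 and 86.9 CPM. Each of these adult levels lay above the P5 interval. Hes5, a gene of the neural classes, went the other way in PC-like cells, with 175, 22.4 and 12.3 CPM. No rule or ratio was fixed for the vascular classes, and the part of free RNA at P5 was not tested.

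Of the 46 other pathway genes, 37 had 20 UMIs at 1 or more ages in NSC-like cluster 1. Lfng, a glycosyltransferase that modifies the receptor, and Dtx3, a member of the Deltex family, were higher by the rule, and Dner, a Notch-binding transmembrane protein, was lower, 8.11% of the 37 beside 9.97% of all genes. Lfng had 135, 311 and 270.0 CPM, with ratios of 2.31 (2.00 to 2.66) and 2.00 (1.58 to 2.52), but 0.899 (0.669 to 1.19) and 2.03 (1.29 to 3.07) in cluster 8, and it missed the rule over all NSC-like cells, at 1.80 and 1.88. Dtx3 had 191, 417 and 417 CPM, with ratios of 2.18 (1.94 to 2.46) and 2.18 (1.80 to 2.63). Dner had 95, 1 and 2 UMIs. No receptor cleavage gene (9 of 9 with 20 UMIs), no nuclear cofactor (9 of 10) and no other target (3 of 5) passed, and in cluster 8 none of the 32 with 20 UMIs passed, beside 6.65% of all genes. Nrarp, a target that feeds back on the pathway and that is named here after its values were seen, had 384, 216 and 184 CPM in cluster 1, with ratios of 0.562 (0.488 to 0.645) and 0.479 (0.364 to 0.621), just outside the rule at 12w.

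The genes most like each member were sought over 15 groups, the 5 neural classes at 3 ages with all NSC-like cells together, by Pearson correlation of log2(CPM + 10) among 11016 genes. The points share 3 libraries and differ in depth, so the values describe likeness only. Notch2 was most like Id4 (r = 0.990), Tmem47 and Acsf2, and Jag1 most like Itih3 (r = 0.970), Gm11681 and Pir. Notch1 was most like Gclm (r = 0.966), Pank1 and Wdsub1, and Notch3 had a looser match, with Eva1b (r = 0.868), Plxdc2 and Bgn. Dll1 was most like Ahcy (r = 0.962), Timeless and Chek1.

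For the targets, Hes5 was most like Tmem100 (r = 0.980), Qk and Ptprz1, and Hes1 most like Mfge8 (r = 0.977), Plpp3 and Tspan7. Hey1 was most like Mras (r = 0.966), Cib1 and Tmem219, and Hey2, with its low counts, most like Mfsd1 (r = 0.825), Ranbp6 and Itfg1. Rbpj was most like Ctr9 (r = 0.963), Psma6 and Ythdf2. Among the members themselves Notch2 ran with Hes1 (r = 0.949) and Jag1 (r = 0.933), Hes5 ran with Hey1 (r = 0.909), and Rbpj ran against Notch2 (r = -0.72) and Hes1 (r = -0.76).

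Chromatin accessibility of the members was read from the scATAC-seq as gene activity, the counts in peaks over the gene body and 2 kb upstream per 1000000 counts in peaks. Cells took the label of the scRNA-seq class they resembled most, with the pathway genes left out of that transfer. At P5 most NSC-labelled cells carried the label of cluster 8, 228 of 281, against 14 of 380 at 12w and 0 of 156 at 24w, so cells labelled as cluster 1 were compared, 52, 366 and 156 of them. At 24w only 2 of the 156 reached a transfer score of 0.8. Peaks were called in each library separately, and the bases they covered are given for the members whose activity is described singly.

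No member changed by 1.5-fold or more in the same direction at both ages in these cells, beside 18.2% of 18089 genes. The activity of Notch2 was 410.0, 529 and 520.4 per 1000000 counts. Its ratios were 1.29 (1.19 to 1.39) and 1.27 (1.17 to 1.37), higher at both ages and smaller than the RNA ratios of about 3. With counts near the start only, from 2 kb before it to 500 bases after it, they were 0.831 and 1.03, so the direction at 12w turned. The peaks covered 43200, 53696 and 42241 bases of its 138835-base window. Jag1 activity was 197, 242 and 217, with ratios of 1.23 (1.10 to 1.38) and 1.11 (0.984 to 1.24), and peaks covered 10821 bases at P5 against 24450 and 24893 in the adult libraries.

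Hes5 activity was 262, 187 and 229 in age order. The ratios were 0.715 (0.647 to 0.791) and 0.871 (0.786 to 0.967), both below 1. Its 3449-base window was fully inside a peak in each library. The peak was counted whole, however, and had 11664 bases at P5 and 9283 and 9096 bases later. Hes1 gave ratios of 0.896 (0.795 to 1.01) and 0.982 (0.868 to 1.11), and Hey1 gave 0.848 (0.732 to 0.986) and 0.859 (0.736 to 1.0). With all NSC-labelled cells, the ratios of Hes1 were 1.13 and 1.24, in the other direction, and those of Hes5 0.805 and 0.973. At a transfer score of 0.8, reached by 17 of 52, 90 of 366 and 2 of 156 cells in age order, those of Hes5 were 0.534 and 0.440, the last from those 2 cells. Hey2 was lower, with ratios of 0.783 (0.638 to 0.969) and 0.737 (0.593 to 0.923), although its peaks covered 3306 bases at P5 and 8655 and 10834 bases later. Notch1, Notch3, Dll1 and Rbpj lay between 0.862 and 1.19 at both ages.

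**Figure D4:**
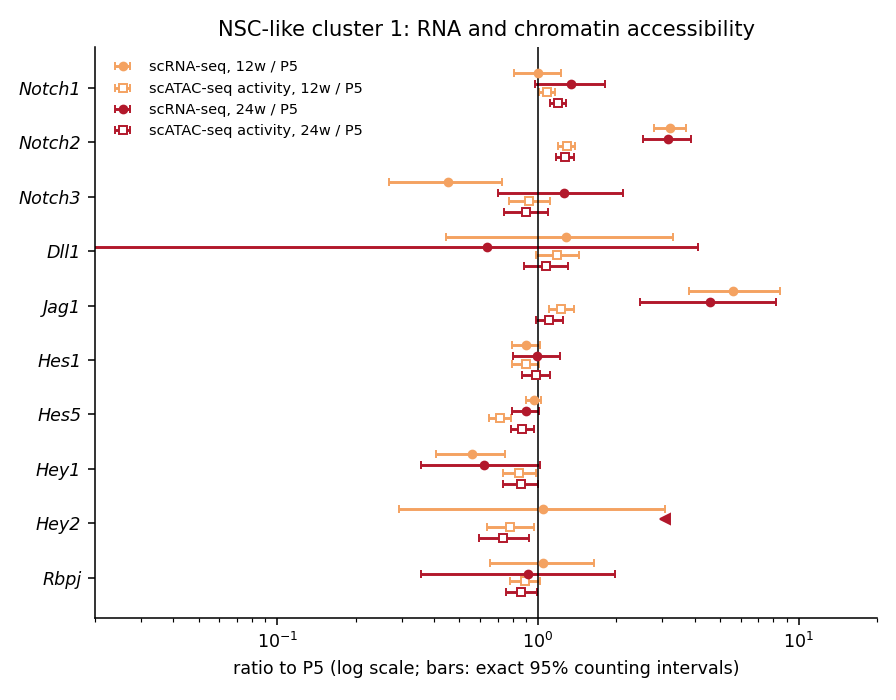
Ratio to P5 (horizontal log axis) of the RNA level in NSC-like cluster 1 (filled circles) and of the gene activity in cells labelled as cluster 1 (open squares) for each gene at 12w and 24w, with exact 95% counting intervals; the left-pointing triangle is the upper bound for Hey2 RNA. Activity ratios lie between 0.715 and 1.29, while the RNA ratios of Notch2 and Jag1 lie above 3.

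In other labelled cells receptors and Jag1 were among the members past this rule. Jag1 in AS-labelled cells had ratios of 1.63 (1.54 to 1.73) and 1.71 (1.54 to 1.88) and was the member past the rule there, beside 21.1% of 20607 genes in either direction and 4.25% upward, and Jag1 RNA had higher values in AS-like cells as well. With the start window the Jag1 ratios in AS-labelled cells were 1.37 and 1.60, short of the rule at 12w. In IMN2-labelled cells Notch1, Notch3 and Jag1 were higher by the rule, beside 12% of 20455 genes (7.08% upward), and in IMN1-labelled cells Notch1, Notch2, Notch3 and Jag1, beside 12.3% of 19108 genes (5.11% upward). In VSMC-labelled cells Notch3 (2.35 and 2.23), Jag1 (2.08 and 2.02) and Hey2 (2.09 and 2.09) were higher and Dll1 (0.419 and 0.394) lower, beside 38.1% of 18734 genes. In PC-labelled cells Notch3 (1.91 and 1.84) was higher and Dll1 (0.627 and 0.652) lower, beside 36.8% of 20117 genes. Hes1 was higher in ependymal-labelled cells (1.66 and 1.63), beside 21.3% of 17814 genes (9.06% upward), and Notch1 in oligodendrocyte-labelled cells (1.72 and 1.76), beside 19.9% of 17803 genes (6.53% upward). There were 39, 310 and 107 ependymal-labelled and 96, 47 and 46 oligodendrocyte-labelled cells in age order. IMN1-labelled cells numbered 198, 398 and 38, of which 9, 60 and 0 reached a transfer score of 0.8. The IMN1 calls thus rest at 24w on cells below that score. No member passed the rule in NPC-labelled cells, beside 8.49% of 19755 genes. With the start window none of these calls of Notch2, Notch3 and Jag1 was kept, while those of Notch1, Hes1, Hey2 and Dll1 were. Every peak touching a window was counted whole, so for Hes1, and for Dll1 at P5 and 12w, both windows gave the same counts. The start window is therefore no separate check of Hes1 and little of Dll1. For Hey2 the single peak over the start window had 3018 bases at P5 and 9306 and 14668 bases later.

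For some of these genes the covered bases differed between libraries and for others they did not. For Notch3 the peaks covered 8413 bases of its 48033-base window at P5 and 31358 and 32378 bases in the adult libraries, in which most cells were vascular. For Notch1 the peaks covered 39116 bases of its 60761-base window at P5 and 49904 and 51193 bases later, and for Rbpj 13867 of 193211 bases at P5 and 23398 and 19762 bases later. In the start window of Notch1 they covered 1033 of 2501 bases at P5 and all of it later. For Jag1 and Hey2 the adult peaks also covered more than at P5, as given above. For Hes1, its 5413-base window was covered in full in each library, but the peak, counted whole, had 9080, 13216 and 12997 bases in age order. For Dll1 the peaks covered 7138, 7040 and 6207 bases. The part of peak calls in the ratios was not tested.

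In the RNA-seq of cultured NSCs, 4 libraries held values in TPM, a transcript level scaled for length and depth: those labelled Ctrl_3, Setd8KD_1, Setd8KD_2 and Setd8KD_3. The labels and the study's own table of TPM values disagree on which are controls. All 169 genes compared were equal, within a relative 0.001, between the library labelled Ctrl_3, Setd8KD_1 or Setd8KD_2 and a control column of that table, and between the library labelled Setd8KD_3 and a knockdown column. Setd8 itself had 154, 143 and 143 TPM in the first 3 libraries and 36.4 TPM in the library labelled Setd8KD_3. The libraries were therefore compared as 3 controls and 1 knockdown, and the single knockdown library is assumed to vary like the controls, so each p-value measures a difference of that 1 library against the spread of the controls. Nothing in the labels says that the libraries came from separate cultures. Of 7 NSC marker genes of the culture, all present in the 4 libraries, 3 passed the test given next. Pax6 was lower, at 14.4 TPM in the library labelled Setd8KD_3 against 22.4 to 24.4 TPM in the other 3 (limma, adjusted p = 0.0116), Fabp7 lower, at 4870 against 5857 to 6013 TPM (limma, adjusted p = 0.0386), and Sox1 higher, at 47.6 against 31.9 to 35.3 TPM (limma, adjusted p = 0.0213). Nes had 149.9 TPM in that library against 191 to 236 TPM (limma, adjusted p = 0.0572), and Sox2 had 245 against 226 to 251 TPM. The part of these markers in the differences of the members was not tested.

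With limma on log2(TPM + 1) and Benjamini-Hochberg adjustment over all genes tested, 5 of the 9 members tested passed an adjusted p of 0.05 in this comparison of 1 library with 3, beside 32.4% of 13233 genes, 16.1% higher and 16.3% lower. Notch2, Notch3 and Jag1 were higher and Hes5 and Hey1 lower in the library labelled Setd8KD_3. Values of the knockdown lay outside the 3 controls for 81.4% of all genes tested, so lying outside them was common, and 8 of the 9 members tested did. In bulk RNA, fewer cells of a type and less RNA per cell cannot be told apart.

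The receptor Notch2 had 5.74, 6.85 and 6.83 TPM in the libraries labelled Ctrl_3, Setd8KD_1 and Setd8KD_2 and 11.3 TPM in that labelled Setd8KD_3. The knockdown lay above all 3 controls, by 0.72 ± 0.12 (SE) on the log2 scale (limma, adjusted p = 0.0201). Notch3 had 17.9, 22.3 and 22.6 TPM against 33.4 TPM, a difference of 0.65 ± 0.16 (limma, adjusted p = 0.0437). Notch1 had 26.8, 30.9 and 32.6 TPM against 29.4 TPM, inside the range of the controls, and its difference of -0.03 ± 0.13 did not pass (limma, adjusted p = 0.881).

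Jag1 was the ligand past the test. It had 13.0, 15.4 and 14.1 TPM in the controls and 25.6 TPM in the knockdown, higher by 0.82 ± 0.11 on the log2 scale (limma, adjusted p = 0.0147). It did not pass without the library labelled Setd8KD_2 (limma, adjusted p = 0.0508) or with no filter on low values (limma, adjusted p = 0.0909). Dll1 had 31.0, 28.3 and 31.6 TPM against 32.2 TPM, and the difference of 0.09 ± 0.09 was within its error (limma, adjusted p = 0.493).

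Hes5 was the target with the largest difference. It had 28.1, 28.2 and 24.0 TPM in the controls and 12.6 TPM in the knockdown, below all 3, with a log2 difference of -1.02 ± 0.12 (limma, adjusted p = 0.0112). Hey1 had 73.8, 68.8 and 70.9 TPM against 54.7 TPM, a difference of -0.37 ± 0.07 (limma, adjusted p = 0.0298). Hes1 had 98.1, 89.4 and 86.6 TPM against 81.1 TPM, below all 3 controls, and the difference of -0.17 ± 0.10 did not pass (limma, adjusted p = 0.248). Hey2, which was all but silent in the culture, had 0.0899, 0.0439 and 0.0466 TPM against 0.269 TPM, from 2, 1, 1 and 6 reads, and was not tested.

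Rbpj had 11.2, 10.1 and 9.22 TPM in the controls and 8.19 TPM in the knockdown. It lay below all 3, but the difference of -0.28 ± 0.12 did not pass (limma, adjusted p = 0.151). The calls rest on the grouping by the study's table: with the groups as the labels give them, 1 control and 3 knockdown libraries, no member passed limma's test and none of the 13233 genes did, while 168 genes had an unadjusted p under 0.05. The differences of Notch2, Notch3, Jag1, Hes5 and Hey1 kept their sign under the labels' grouping, at 0.43, 0.49, 0.42, -0.44 and -0.19. The calls also rest on single controls, since without the library labelled Setd8KD_2 Hes5 was the member that passed, without that labelled Setd8KD_1 Jag1 and Hes5 were, and without that labelled Ctrl_3 Hey1 was lost (limma, adjusted p = 0.0548). The differences themselves changed little: without Setd8KD_2, Jag1 differed by 0.81 and Notch2 by 0.76 (limma, adjusted p = 0.0531). With no filter on low values none of the 5 passed, at the same differences (limma, adjusted p from 0.0772 for Hes5 to 0.208 for Notch3).

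**Figure D5:**
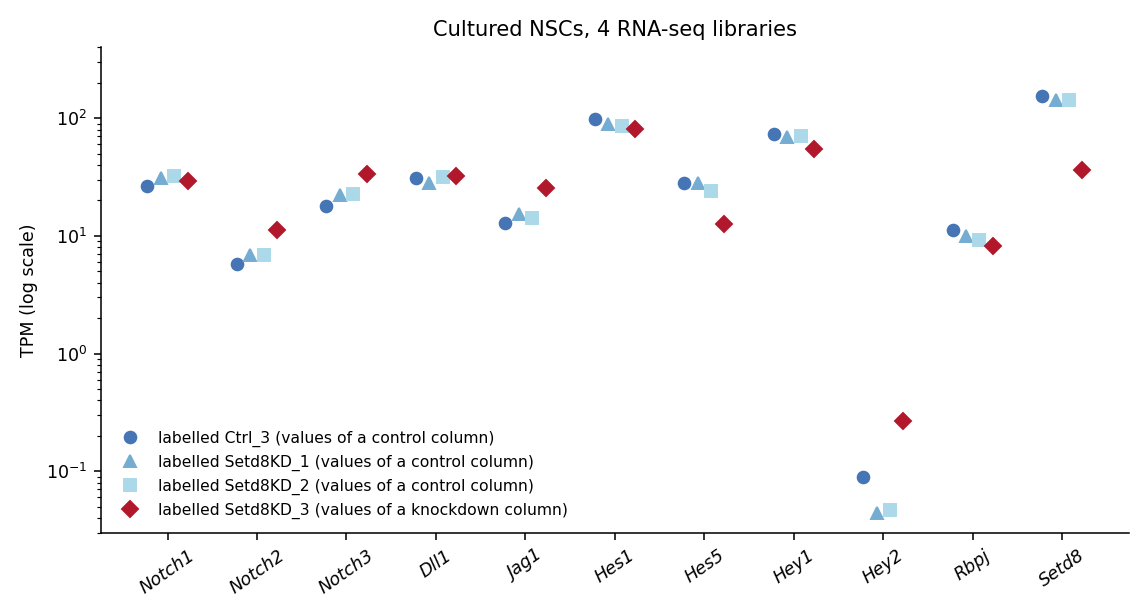
TPM (vertical log axis) of the 10 genes and of Setd8 in the 4 RNA-seq libraries of cultured NSCs, 1 point per library and no error bars; blue symbols are the 3 libraries whose values match control columns of the study's table and the red diamond the library that matches a knockdown column. The diamond lies above the blue symbols for Notch2, Notch3 and Jag1 and below them for Hes5, Hey1 and Setd8, and within them for Notch1.

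Of the other pathway genes, 39 of 46 were tested, 8 were higher and 8 lower in the knockdown (limma, adjusted p under 0.05), beside 16.1% higher and 16.3% lower of all genes. Among the higher were Dner, Lfng and Rfng, which like Lfng modifies the receptor, Psen2, a subunit of the protease that releases the intracellular domain, the protease gene Furin, Numbl and Maml1. Lower were Adam10, which makes the first ligand-induced cut, Ncstn, another subunit of the releasing protease, the ligand-acting Neurl1a and Neurl1b, the nuclear factors Snw1, Hdac1 and Kat2b, and the target Nrarp. Receptor cleavage genes thus stood on both sides. The median log2 difference over the members tested was -0.03, beside 0.0015 over all genes.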

How the data were processed

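The deposited scRNA-seq counts are UMIs, 1 value for each gene in each barcode, from Cell Ranger 2.2.0 on mm10. The scATAC-seq counts were deposited per peak and barcode, made with Cell Ranger ATAC on mm10 with peaks called in each library. The RNA-seq TPM values were made by the authors from 50-bp single-end reads with Trimmomatic and STAR on mm10; 0.01 read per gene had been added to them. Gene lengths were taken from the deposited length column.

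Cells had at least 1000 UMIs, 500 genes and at most 10% mitochondrial UMIs. Scrublet in scanpy 1.11.5 removed 932, 80 and 3 doublets at P5, 12w and 24w. Cells were integrated and clustered with Seurat 5.3.0 on 2000 variable genes, 30 dimensions and resolution 0.8, in 2 rounds. A comparison of all NSC-like cells had been planned, but cluster 1 failed the check of its leading genes, so clusters were compared and the pooled cells became an alternative. Free RNA was profiled on barcodes with 10 to 100 UMIs. For scATAC-seq, cells had over 3000 and under 100000 counts, and labels were transferred with a score of at least 0.5. Cells kept were 8788, 12638 and 6041, with a median of 25475, 20246 and 24553 counts.

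RNA-seq was tested with limma 3.58.1 in R 4.3.3 on log2(TPM + 1), for genes of at least 1 TPM in 1 or more libraries. Multiplying TPM by length and dividing by what 1 read is worth gave whole reads, within 0.02, for 99.3% to 99.4% of values, 20040100 to 21493300 reads per library. These went to edgeR 4.0.16 and DESeq2 1.42.0 as alternatives, which called 6089 and 4401 genes. The multi-gene scripts were tested on simulated data.

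The members and lists were chosen with earlier results of these data known. All 10 members were named, other pathway genes where they passed a rule in NSC-like cells or the RNA-seq, and the 3 most similar genes of each member, among genes with at least 200 UMIs. The 2 other files labelled Ctrl hold gene symbols and lengths and gave no values. The result of 1 other pathway gene is not reported here.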

Additional observations from a re-analysis of the deposited data

Results flagged for a closer look

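The results here are ratios of CPM to P5 that pointed in opposite directions in different classes. Each class has 1 library per age, so the difference between classes was not tested. Hes1 had ratios above 1 at both ages in NSC-like cluster 8 (1.93 at 12w and 2.28 at 24w), IMN1-like cells (1.18, with an interval of 0.700 to 1.94 that includes 1, and 3.49) and AS-like cells (1.39 and 1.37). Its ratios were below 1 in NSC-like cluster 1 (0.899 and 0.990), NPC-like cells (0.522 and 0.668) and IMN2-like cells (0.528 and 0.876). In cluster 1 both intervals include 1, and the direction turned over all NSC-like cells (1.16 and 1.32), against P5 cells of the adult library's sex at 12w (1.04) and at resolution 1.2 at 24w (1.34). For IMN1-like cells the predicted free RNA of 33.0 and 70.0 CPM was above the 23.2 and 68.6 CPM of Hes1 counted, and in IMN2-like cells 33.0 and 52.9 CPM were predicted beside 20.5 and 34.0 CPM counted.

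Notch3 had ratios above 1 at both ages in NPC-like cells (1.53 and 5.26) and IMN2-like cells (1.37, with an interval of 0.831 to 2.22 that includes 1, and 3.98) and below 1 in AS-like cells (0.226 and 0.877, the second with an interval that reaches 1.43). Its predicted free RNA was 19.3 and 38.1 CPM in NPC-like cells, beside 19.5 and 67.1 CPM counted, and 18.3 and 35.2 CPM in IMN2-like cells, beside 15.2 and 44.3 CPM counted. In AS-like cells it was 19.1 and 38.4 CPM, beside 13.8 and 53.4 CPM counted. After its subtraction at the adult ages, IMN2-like cells had 0 and 9.04 CPM of Notch3, beside 11.1 CPM at P5. NPC-like cells then had 0.136 and 29.0 CPM, beside 12.8 CPM at P5. Nothing could be subtracted at P5, so the step lowers adult values only and cannot settle the direction.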

How the results depend on the processing

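In scRNA-seq, 1 member passed the rule in NSC-like cluster 1. The count was 2 at resolution 1.2, with free RNA subtracted, over all NSC-like cells, in cluster 8 (chosen after seeing the data), at a fold of 1.5 and with no UMI minimum. The share of all genes past the rule, 9.97% in the main setting, was 20.2% at a fold of 1.5 and 26.9% with no UMI minimum, and 6.65% to 11.7% in the other alternatives. It stayed at 1 under the other alternatives, but with the pathway genes in the clustering the member was Hey1 (lower) in place of Notch2. Of the levels by class and age, 57 of 150 moved outside their own interval when cells were thinned to 1000 UMIs and 42 of 100 when free RNA was subtracted. In scATAC-seq the count of 0, beside 18.2% of all genes, became 1 with the start window (Notch3, lower), beside 18.4%. It was 1 at a score of 0.8 (Hes5, lower, with 2 cells at 24w), beside 17.1%. At a lower fold threshold it was 2 (Notch2, higher, and Hey2, lower), beside 36.8%. In RNA-seq the 5 members called became 0 with the labels' grouping, 0 with no filter on low values, 4 with log2(TPM + 0.1), 6 with edgeR, and 1 to 4 when a control was left out. Genes called went from 4283 to 0 with the labels' grouping, 1935 with no filter, 1746 without the library labelled Setd8KD_1 and 2396 without that labelled Setd8KD_2. The log2 difference of Notch1, -0.03, turned to 0.20 with the labels' grouping and 0.0012 with upper-quartile scaling, ranged from -0.11 to 0.031 when a control was left out (0.031 without Setd8KD_2), and that of Dll1, 0.09, turned to -0.014 with the labels' grouping. Rbpj passed with edgeR only (adjusted p = 0.038). The cause of these changes was not tested. No paired analysis was possible because the single knockdown library shares a replicate number with 1 control at most. Depth limits Notch3, Dll1, Jag1, Hey1, Hey2 and Rbpj in NSC-like cells, where 18 or fewer UMIs were counted at 24w in cluster 1.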
